A study of Mus musculus with 495 samples.

Results

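Insulin-dominant cells were taken from single cells of the mouse embryonic pancreas, each sequenced as a full-length Smart-seq2 library. A cell was counted as insulin-dominant when the summed level of the insulin genes Ins1 and Ins2 was at least 1000 CPM (a gene's reads scaled to a total of 1000000 counted in that cell) and was higher than the level of Gcg, Sst, Ppy and Ghrl, the genes of glucagon, somatostatin, pancreatic polypeptide and ghrelin. Wells of rows D and H on plates EA01, EA02 and EA03 were left out. By this rule 59 of the 495 cells were insulin-dominant, 12.3% of the 480 cells considered (95% interval 9.49 to 15.6%, exact binomial, counting error only). They were set against 83 cells dominated by another of these hormones, of which 18 were dominated by Gcg, 25 by Sst, 12 by Ppy and 28 by Ghrl. The remaining 338 cells considered were dominated by none of them.

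Cells came from E17.5 and E15.5, the embryonic day. The E17.5 cells were on plates EA06 and EA07, coded Neurog3-cre, from mice that carry Neurog3-Cre together with Rosa-mTmG, a Cre-dependent reporter that switches a cell and its descendants from membrane tomato to membrane green fluorescence. Here Cre is driven by Neurog3, the factor that starts endocrine differentiation, so the reporter marks cells that have expressed it. The E15.5 cells came from Neurog3-eGFP mice, a knock-in of green fluorescent protein at the Neurog3 locus, and their plates were coded Neurog3 (EA01 and EA03), endocrine (EA02 and EA05) or duct (EA04). Insulin-dominant cells numbered 14 at E17.5 and 45 at E15.5. Of the cells dominated by Gcg, Sst, Ppy and Ghrl, 3, 13, 5 and 18 came from E17.5. From E15.5 came 15, 12, 7 and 10 of them. The stages and strains thus weigh differently in each class, and ratios of counts summed over plates mix them with hormone class. Plate EA06 held 6 of them in 57 cells, EA07 8 in 72, EA01 6 in 67, EA02 5 in 66, EA03 7 in 67 and EA05 27 in 85, while the duct plate EA04 held 0 in 66, where insulin reached at most 39.8 CPM. Stage, mouse strain and plate code changed together, so a difference between E17.5 and E15.5 cannot be told apart from a difference between strains or plate codes.

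Beta cells make insulin as a preprohormone that enters the endoplasmic reticulum (ER), where it folds and forms disulfide bonds, and is then cut by the convertases Pcsk1 and Pcsk2 in zinc-containing granules and stored with amylin, the product of Iapp. In the mouse pancreas, endocrine cells arise from ductal progenitors that switch on Neurog3 for a short time and then take one of several hormone fates. The beta fate depends on factors such as Pdx1, Nkx6-1 and Pax4. A mature beta cell takes up glucose through Slc2a2 (GLUT2), metabolises it and releases insulin when the ATP-sensitive potassium channel made of Abcc8 and Kcnj11 closes.

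The mouse has a pair of insulin genes, and the coding sequences are shown because the class is defined by their sum and reads were assigned to each by sequence. Both are read from the GENCODE M21 annotation of GRCm38, 5′ to 3′, the first 300 coding bases from the start codon, and capitals mark the bases that differ between them, including those with no partner. The Ins1 coding sequence lies at chr19:52264624-52264950 on the plus strand, and that of Ins2 within chr7:142678713-142679533 on the minus strand, with introns removed.
Ins1: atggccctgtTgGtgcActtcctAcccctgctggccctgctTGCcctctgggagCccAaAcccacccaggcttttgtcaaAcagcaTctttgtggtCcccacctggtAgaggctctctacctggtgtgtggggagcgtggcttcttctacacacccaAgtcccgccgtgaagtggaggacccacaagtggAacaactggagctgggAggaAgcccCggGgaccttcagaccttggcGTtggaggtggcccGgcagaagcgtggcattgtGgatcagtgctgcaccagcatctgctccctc
Ins2: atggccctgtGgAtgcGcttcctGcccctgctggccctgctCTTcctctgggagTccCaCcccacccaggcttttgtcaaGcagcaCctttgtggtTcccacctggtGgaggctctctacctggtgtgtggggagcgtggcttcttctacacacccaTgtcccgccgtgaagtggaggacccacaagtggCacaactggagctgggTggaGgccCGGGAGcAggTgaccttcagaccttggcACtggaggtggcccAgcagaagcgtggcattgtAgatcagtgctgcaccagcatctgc
Over the whole coding sequences, of 333 aligned columns 302 (90.7%) were identical, 25 held a substitution and 6 held a gap, all in Ins1, which has 327 coding bases against 333 in Ins2. The longest identical run was 56 bases. Reads that fall in such stretches could have been split or dropped in counting, so the balance of Ins1 and Ins2 is less certain than their sum.

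Promoter windows of 3 genes that define the class or stood out in it are shown next, from RefSeq on GRCm38.p6, 250 bases before to 50 after the annotated start. Capitals mark the E-box motif GCCATCTG and the homeobox core TAAT, searched on both strands with overlapping matches counted. The Ins1 window is chr19:52264047-52264346, the Iapp window chr6:142298175-142298474 and the Slc2a2 window chr3:28697653-28697952, all on the plus strand.
Ins1 promoter: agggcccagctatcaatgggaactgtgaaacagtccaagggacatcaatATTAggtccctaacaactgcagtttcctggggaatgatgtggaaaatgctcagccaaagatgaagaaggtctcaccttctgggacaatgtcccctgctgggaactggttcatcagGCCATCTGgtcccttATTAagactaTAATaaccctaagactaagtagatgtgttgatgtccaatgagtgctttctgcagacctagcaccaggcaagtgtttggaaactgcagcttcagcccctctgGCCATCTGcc
Iapp promoter: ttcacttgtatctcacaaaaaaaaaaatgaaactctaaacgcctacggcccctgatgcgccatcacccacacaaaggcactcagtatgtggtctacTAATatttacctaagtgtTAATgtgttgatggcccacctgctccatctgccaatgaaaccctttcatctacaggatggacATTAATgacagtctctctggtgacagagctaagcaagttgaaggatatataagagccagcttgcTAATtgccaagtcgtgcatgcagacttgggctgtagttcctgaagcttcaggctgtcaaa
Slc2a2 promoter: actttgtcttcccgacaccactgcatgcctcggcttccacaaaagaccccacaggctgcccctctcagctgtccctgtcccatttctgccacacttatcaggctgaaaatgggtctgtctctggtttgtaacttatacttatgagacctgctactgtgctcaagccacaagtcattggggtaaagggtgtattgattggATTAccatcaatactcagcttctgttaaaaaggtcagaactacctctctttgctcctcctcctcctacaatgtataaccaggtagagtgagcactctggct
The Ins1 window held GCCATCTG 2 times and TAAT 3 times, that of Iapp held TAAT 5 times and that of Slc2a2 held it 1 time. Across 32851 promoter windows GCCATCTG was in 1.32% and TAAT in 58.03%, so the second motif is common in any such window. Among 11 windows of 9 genes that lead the class, which also include Arhgap36, G6pc2, Gip, Nnat, Sdf2l1 and Sytl4, GCCATCTG was in 1 and TAAT in 6. A match describes letters in a window and does not show binding.

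Insulin-dominant cells held 203983 to 1095214 counts (median 606293), and cells dominated by another hormone held 281267 to 1096693 (median 600307), so depth was alike. Wells of rows D and H on EA01 to EA03, which were left out, stood apart, with 10 of 15 cells insulin-dominant at a median of 175255 CPM. The ribosomal RNA precursor gene Rn45s took 11.5% of counts in both classes. No label names the animal, litter or culture of a cell, so each class and each stage is 1 sample and no test was possible. Differences are given as summed values, with their values or range over plates for some genes only. Plate EA05 held 27 of the 59 cells and so weighs most in any sum. One cell on EA02 (well A5) had 48637 CPM of summed acinar enzyme genes, against at most 733 CPM in the other 58 insulin-dominant cells, and it alone among them was positive for cycling genes. Counts of other-lineage genes are therefore given with and without it where it matters.

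The insulin level itself spanned a wide range. Summed Ins1 and Ins2 lay between 1053 and 100627 CPM with a median of 24777. At E17.5 the lowest, median and highest cells had 1122, 23376 and 72379 CPM, and at E15.5 they had 1053, 27835 and 100627 CPM, so the ranges overlapped almost wholly. Plate medians were 16845 CPM on EA06 and 31096 on EA07, against 8037 on EA01, 17298 on EA02, 17171 on EA03 and 34596 on EA05. Both endocrine-coded plates, EA02 and EA05, thus differed in their median, as did both Neurog3-coded plates. In cells dominated by another hormone insulin reached at most 5987 CPM, and 2 of those cells passed 1000 CPM. The members nearest the threshold had 1053, 1122, 1242, 1280 and 1574 CPM, and the nearest cells below it had 687, 423, 339, 333 and 312 CPM. These levels chose the members and are a description only.

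Reads of the paired insulin genes were split very unequally in individual cells. In the summed counts Ins2 stood at 21529.8 CPM in insulin-dominant cells and 123.3 CPM in the others, and Ins1 stood at 8992 CPM in insulin-dominant cells and 27.9 CPM in the others. Ins1 made up 29.5% of the pooled insulin reads and a median of 28.01% per cell, but the share spanned 0 to 100%. It was under 1% in 17 cells and over 99% in 2, so 19 of the 59 cells had almost all of their insulin reads on one gene. Those 19 cells had 1053, 8914 and 34596 CPM of insulin (lowest, median, highest), against 1122, 37291 and 100627 CPM in the 40 cells with both. Of the 33 cells at or above 20000 CPM, 3 had an Ins1 share under 1%, and of the 26 cells below it 14 did. In the 33 cells with more insulin the median share was 32.4% (0.0493 to 57.7%). Loss of one gene's molecules in a library and use of one gene by the cell cannot be told apart here.

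**Figure D1:**
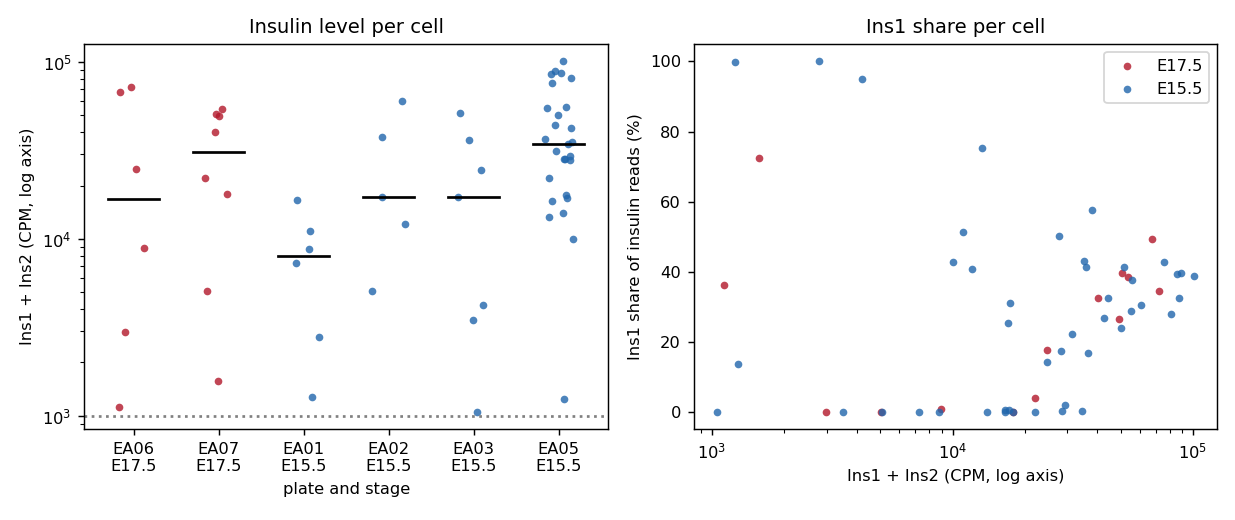
Left, summed Ins1 and Ins2 level (CPM, log axis) of each insulin-dominant cell by plate, E17.5 plates before E15.5 plates, with a black line at the plate median and a dotted line at 1000 CPM. Right, the Ins1 share of insulin reads (percent) against the insulin level of the same cells, E17.5 in red and E15.5 in blue; shares near 0 and 100% lie mostly among cells with less insulin.

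Markers named for this class besides the insulin genes were Iapp, Nnat, G6pc2 and Papss2. These 4 genes did not enter the rule but were chosen with earlier results of these data known. Amylin (Iapp) had 15788 CPM in insulin-dominant cells and 4146 CPM in cells dominated by another hormone, and it was at or above 20 CPM in 58 of 59 and in 57 of 83 cells. Across classes its summed level was 15788 CPM in insulin, 6421 in glucagon, 8766 in somatostatin, 419 in pancreatic polypeptide and 462 in ghrelin cells, so it marks several of them. Nnat, an imprinted gene that encodes the ER-membrane protein neuronatin, differed more. Its lowest, median and highest values were 0, 3270 and 15671 CPM in insulin-dominant cells, and its median was 0 and its highest 2155 CPM in the others, with 56 of 59 and 21 of 83 cells positive (log2 ratio 4.84, 2.61 to 9.01 over 6 plates). Log2 ratios here are of summed CPM plus 5. G6pc2, an islet subunit of glucose-6-phosphatase, had 568 CPM in insulin-dominant cells against 42.8 in the others (3.59), with 37 of 59 and 7 of 83 cells positive. Papss2, which makes the sulfate donor PAPS, had 677 CPM in insulin-dominant cells against 136.2 in the others (2.27), with 52 of 59 and 27 of 83 positive. All 4 were higher in the insulin class, which describes it and is no independent check of its label. Markers of late maturation were nearly missing, since Mafa had 2.95 CPM in insulin-dominant cells and 0 in the others and Ucn3 had 5.38 CPM in insulin-dominant cells and 0 in the others, each positive in 2 of the 59 insulin-dominant cells.

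Markers of most other cell types were low or at 0 in insulin-dominant cells, apart from acinar genes in the EA02 cell named above, while duct and neural lists reached 1000 CPM in several cells. Summed mesenchyme markers reached 131.5 CPM in insulin-dominant cells and 15027 CPM in the others, with 8 of 11 markers at 0 counts in the insulin class. Summed endothelial and immune markers each reached 303 CPM in insulin-dominant cells, with 7 of 8 and 6 of 8 markers at 0, and erythroid markers reached 78.7 CPM. Summed duct and progenitor markers had a lowest, median and highest value of 0, 1182 and 3351 CPM in insulin-dominant cells and of 50.3, 1463 and 21262 CPM in the others, and 34 of the 59 insulin-dominant cells were over 1000 CPM. Summed neural crest and neuron markers had a median of 162.2 and a highest value of 1792 CPM in insulin-dominant cells, with 5 cells over 1000 CPM and 4 of 8 markers at 0, including Sox10. In the others their median was 9.998 and their highest value 1367 CPM. Their part in the differences between classes was not tested. Of the 14 acinar markers 9 were measured and 8 were at least 2-fold higher in insulin-dominant cells, but without the EA02 cell 0 were higher and 2 lower.

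Genes of glucose sensing and insulin release were higher as a group in insulin-dominant cells. Of 22 listed genes 15 were measured (at least 20 CPM in either class), 8 were at least 2-fold higher in insulin-dominant cells and 0 lower, with a median log2 ratio of 1.88, while 8.76% of the 7866 genes measured were at least 2-fold higher, 13.8% were lower and their median was -0.11. A gene that was measured only through the class where it is high had to differ, so such counts describe and do not test. Of the 15, 5 (33.3%) were higher on all 6 plates that held at least 5 cells of both classes, as were 3.24% of all genes. Such all-gene shares cover every measured gene and are not matched to the expression level of a list. Slc2a2, at chr3:28697903-28731359, had 319 CPM in insulin-dominant cells against 5.75 CPM in the others, a log2 ratio of 4.91. The lowest, median and highest insulin-dominant cells had 0, 169 and 1497 CPM of it, and it was positive in 40 of 59 insulin-dominant cells and in 1 of the other 83, at 363 CPM. It was at 0 counts in the glucagon, pancreatic polypeptide and ghrelin classes and at 19.3 CPM in the somatostatin class.

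Sytl4, which encodes granuphilin, a Rab effector on insulin granules, had the largest log2 ratio among genes higher on all 6 plates, outside the insulin genes. It had 521 CPM in insulin-dominant cells against 8.08 CPM in the others (5.33), the median cells had 337 and 0 CPM, and 49 of 59 and 2 of 83 cells were positive. The ratio lay between 2.18 and 6.91 on every plate. Ppp1r1a, an inhibitor of protein phosphatase 1, had 665 CPM in insulin-dominant cells and 51.7 CPM in the others (3.56). Slc30a8, the zinc transporter of insulin granules, had 364 CPM in insulin-dominant cells and 95.6 CPM in the others (1.88) and was higher on 5 of 6 plates. The GLP-1 receptor gene Glp1r, with 26.3 CPM in insulin-dominant cells against 0.755 in the others, was positive in 11 and 1 cells.

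Other genes of glucose-dependent release were expressed in both sets of cells. Abcc8 had 1006 CPM in insulin-dominant cells and 1001 CPM in the others (0.01), and Kcnj11 had 109.3 CPM in insulin-dominant cells and 124.98 CPM in the others (-0.19). These subunits of the potassium channel were thus at like levels in insulin-dominant cells and in the pooled others, but by single class Kcnj11 was at 38.7 CPM in glucagon cells (1.39) and Abcc8 at 1533 CPM in somatostatin cells (-0.60). Gipr, the receptor of the gut hormone GIP, had 50.5 CPM in insulin-dominant cells and 46.4 CPM in the others.

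**Figure D2:**
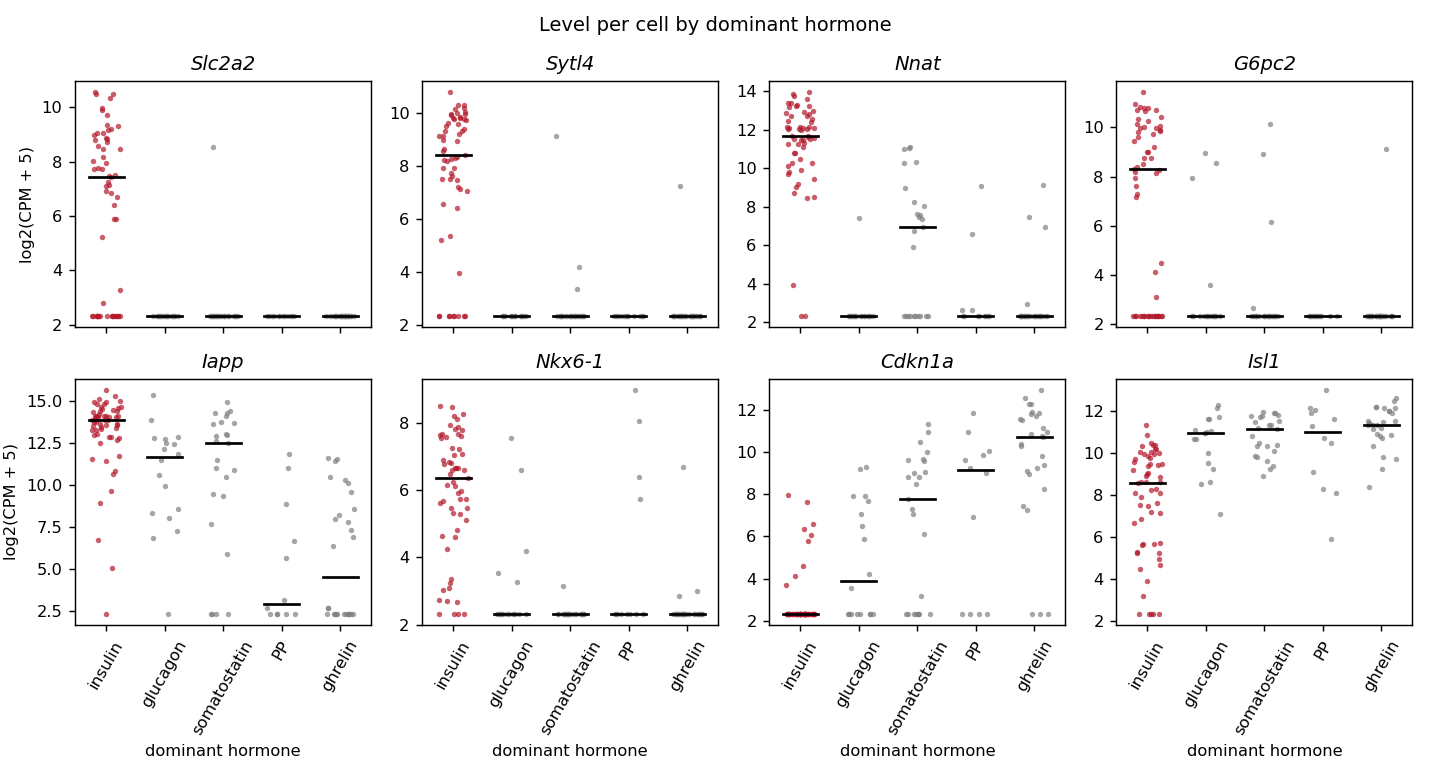
Level of 8 genes in each cell, log2(CPM + 5), by the hormone that dominates the cell, with insulin-dominant cells in red, other classes in grey and a line at each median. Slc2a2, Sytl4, Nnat, G6pc2 and Nkx6-1 are high mainly in insulin-dominant cells, Iapp also in glucagon and somatostatin cells, and Cdkn1a and Isl1 are lower in insulin-dominant cells.

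Beyond that list, the 12 highest log2 ratios among genes higher on all 6 plates included several genes with other known roles. Arhgap36, which encodes an antagonist of protein kinase A, had 283 CPM in insulin-dominant cells against 3.91 CPM in the others (5.01), but only 23 of 59 cells carried it and the highest of them had 2921 CPM. Maob, monoamine oxidase B, had 528 CPM in insulin-dominant cells against 56.8 CPM in the others (3.11), positive in 41 of 59 and 12 of 83 cells. Mapt, which encodes the microtubule protein tau, had 187 CPM in insulin-dominant cells against 13.9 CPM in the others (3.34), positive in 35 of 59 and 5 of 83 cells. These genes were thus under 20 CPM in a larger share of the insulin-dominant cells than Nnat was. Ppp2r2b, a regulatory subunit of protein phosphatase 2A, had 84.2 CPM in insulin-dominant cells and 7.09 CPM in the others (2.88), positive in 24 and 4 cells.

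Genes of protein folding in the ER were higher as a group. All 23 listed genes were measured, 15 were at least 2-fold higher in insulin-dominant cells, 0 were lower, and the median log2 ratio was 1.15. Among all genes 8.76% were higher and 13.8% lower. On all 6 plates 13 of the 23 (56.5%) were higher, against 3.24% of all genes. The median log2 ratio of all genes was 0 on EA01, EA02 and EA03. The part of expression level in this contrast was not tested. The median of the list lay between 0.72 and 1.45 on each plate. Manf, a secreted ER-stress protein, had 33.7, 1552 and 3199 CPM in the lowest, median and highest insulin-dominant cells, and a median of 367 and a highest value of 1720 CPM in the others (summed 1545 CPM against 490.4 CPM, 1.65). It was positive in 59 of 59 insulin-dominant and in 70 of 83 other cells. The disulfide isomerase Pdia6 had 1541 CPM in insulin-dominant cells and 380 CPM in the others (2.01). The ER oxidase gene Ero1lb had 454 CPM in insulin-dominant cells and 55.1 CPM in the others (2.93). These enzymes form and rearrange disulfide bonds. The chaperone-complex gene Sdf2l1 had 390 CPM in insulin-dominant cells and 51.7 CPM in the others (2.80). The chaperone gene Hsp90b1 had 1694 CPM in insulin-dominant cells and 599 CPM in the others (1.49).

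Members of the list below 2-fold included transcription factors of the unfolded protein response. Xbp1 had 450 CPM in insulin-dominant cells and 322 CPM in the others (0.47). The log2 ratio was 0.20 for Atf4 and -0.33 for Ddit3. That of Herpud1, an ER membrane protein gene, was 0.14, and that of Hspa5, the gene of the chaperone BiP, was 0.93 (2475 CPM in insulin-dominant cells, 1294 CPM in the others). The 15 genes past 2-fold were chaperones, their cofactors, folding enzymes and genes of ER-associated degradation such as Edem1 (136.3 CPM in insulin-dominant cells, 31.1 CPM in the others, 1.97).

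Secretory pathway genes, which move new proteins into and out of the ER, followed with a smaller difference. Of 21 measured genes 10 were at least 2-fold higher in insulin-dominant cells and 0 lower (median 0.87), against 8.76% and 13.8% of all genes. On all 6 plates 9 of the 21 (42.9%) were higher, against 3.24% of all genes, again not matched for expression level. Subunits of the translocon were among the higher genes. Sec61b had 1434 CPM in insulin-dominant cells against 554 CPM in the others (1.36, 0.63 to 1.76 over the plates), and Sec61a1 had 596 CPM in insulin-dominant cells against 215 CPM in the others (1.45). The signal peptidase subunit Sec11c had 302 CPM in insulin-dominant cells against 106.8 CPM in the others (1.46). The cargo receptor gene Tmed3 had 681 CPM in insulin-dominant cells against 273 CPM in the others (1.30). With only plates EA01 to EA04 the count of higher secretory genes was 4, where 22.9% of all genes were at least 2-fold higher.

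**Figure D3:**
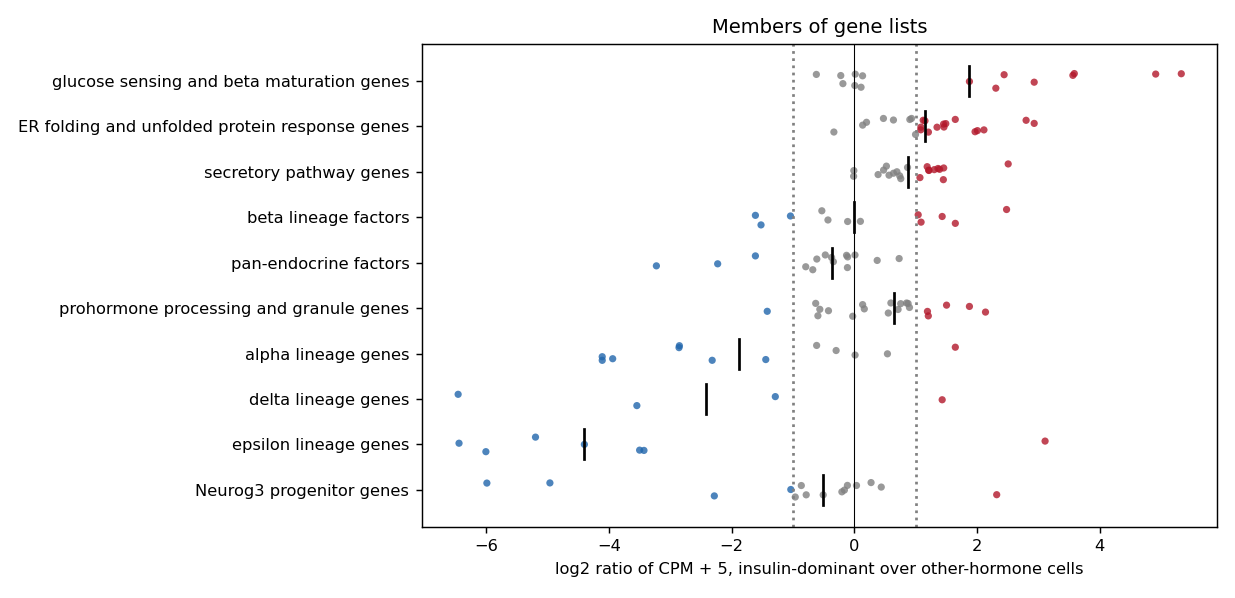
Log2 ratio of insulin-dominant over other-hormone cells for each measured member of 10 gene lists, red for at least 2-fold higher, blue for at least 2-fold lower and grey between, with a black bar at each list's median and dotted lines at 1 and -1. The ER, secretory and glucose-sensing lists lie to the higher side (medians 1.15, 0.87 and 1.88), and the alpha and epsilon lists to the lower side (-1.88 and -4.40).

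Among 20 measured genes of prohormone processing and granules, 5 were at least 2-fold higher in insulin-dominant cells and 1 lower (median 0.65). For all genes these shares were 8.76% and 13.8%. The granins Chgb (1246 CPM in insulin-dominant cells, 543 CPM in the others, 1.19) and Scg2 (1136 CPM in insulin-dominant cells, 397 CPM in the others, 1.50) and the presynaptic scaffold gene Pclo (376 CPM in insulin-dominant cells, 81.5 CPM in the others, 2.14) were among the 5. The convertases were below 2-fold, with Pcsk1 at 487 CPM in insulin-dominant cells and 268 CPM in the others (0.85) and Pcsk2 at 1022 CPM in insulin-dominant cells and 695 CPM in the others (0.55). Both hormone groups thus expressed the enzymes that cut prohormones. Pam, which amidates the ends of peptides, was lower, with 173 CPM in insulin-dominant cells and 470.4 CPM in the others (-1.42). Of 15 measured exocytosis genes 4 were higher, among them Sytl4, Rab3b (1.28) and Syt13 (1.17), and 1 was lower, against 8.76% and 13.8% of all genes. Some genes count in more than 1 list. Sytl4, Slc30a8 and Ero1lb are in the glucose-sensing list and also in the exocytosis, granule and ER lists, respectively.

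Transcription factors of the beta fate did not move as one list. Of 12 measured, 5 were at least 2-fold higher in insulin-dominant cells (among them Glis3, Nkx6-1, Pdx1 and Tle3), against 8.76% of all genes. Lower were 3 (Foxa2, Pax4 and Tle2), against 13.8% of all genes, and the median was -0.00454. Nkx6-1, a homeobox factor that keeps beta identity, had 98.6 CPM in insulin-dominant cells against 13.5 CPM in the others (2.48), with 46 of 59 and 7 of 83 cells positive. Its summed level by class was 98.6 CPM in insulin, 18.2 in glucagon, 0.190 in somatostatin, 58.1 in pancreatic polypeptide and 2.94 in ghrelin cells. Pdx1 had 138.1 CPM in insulin-dominant cells against 48.04 CPM in the others (1.43, 1.07 to 4.68 over the plates), but the somatostatin and pancreatic polypeptide classes held 89.5 and 93.3 CPM, and the glucagon and ghrelin classes 10.1 and 14.8 CPM. Pax4 had 33.9 CPM in insulin-dominant cells against 106.7 CPM in the others (-1.52), in 6 of 59 and 12 of 83 cells, and its sign changed with a hormone threshold of 5000 CPM (1.32).

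Of 15 measured factors used by endocrine cells in general, 0 were at least 2-fold higher in insulin-dominant cells and 3 lower (median -0.37). For all genes these shares were 8.76% and 13.8%. Isl1, a LIM-homeobox factor at chr13:116298281-116309689, had 0, 372 and 2603 CPM in the lowest, median and highest insulin-dominant cells, and a median of 2319 and a highest value of 8316 CPM in the others. It was positive in 51 of 59 and in 83 of 83 cells, its log2 ratio was -2.23, and on the single plates the ratio lay between -2.84 and -1.93. Every other class had more Isl1 than insulin-dominant cells (528 CPM), with 2070 CPM in glucagon, 2171 in somatostatin, 2481 in pancreatic polypeptide and 3013 in ghrelin cells. Runx1t1, a transcriptional corepressor, was lower in the same way, with 45.7 CPM in insulin-dominant cells against 469 CPM in the others (-3.23) and 14 of 59 against 72 of 83 positive cells. Foxa2 had 90.99 CPM in insulin-dominant cells against 288 CPM in the others (-1.61). Pax6, Nkx2-2 and Neurod1, which act across endocrine types, had log2 ratios of -0.47, -0.11 and -0.13.

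Progenitor genes were lower in part. Neurog3 had 4.50 CPM in insulin-dominant cells against 291 CPM in the others (-4.96), with 3 of 59 and 23 of 83 cells positive. Most of that level in the others came from ghrelin cells (647 CPM), then pancreatic polypeptide (210) and somatostatin cells (115.2), whereas glucagon cells had 1.11 CPM. Cdkn1a, which encodes the cell cycle inhibitor p21, had 11.8 CPM in insulin-dominant cells against 1061 CPM in the others (-5.99). It was positive in 6 of 59 insulin-dominant cells and in 57 of 83 others, whose highest value was 7944 CPM. Its level by class was 11.8 CPM in insulin, 122.1 in glucagon, 458 in somatostatin, 784 in pancreatic polypeptide and 2250 in ghrelin cells. In the list of 15 measured Neurog3 progenitor genes 4 were at least 2-fold lower and 1 higher, against 13.8% and 8.76% of all genes.

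Genes of the other fates were mostly lower, where 13.8% of all genes were at least 2-fold lower and 8.76% higher. Of 12 measured alpha-lineage genes 7 were at least 2-fold lower and 1 higher, and of 4 measured delta-lineage genes 3 were lower and 1, Pdx1, higher. Hhex, a homeobox factor of delta cells, had 4.01 CPM in insulin-dominant cells against 786 CPM in the others (-6.46), with 1 of 59 and 32 of 83 cells positive. Mboat4, the acyltransferase that activates ghrelin, had 0 counts in insulin-dominant cells against 430 CPM in the others, at least 5246-fold lower, where the bound takes 3 counts over the class as its floor. Arg1, arginase 1, had 5.24 CPM in insulin-dominant cells against 652 CPM in the others (-6.00). Of 7 measured epsilon-lineage genes 6 were lower and 1, Maob, was higher. In the lists not described further, 1 gene was higher and 3 lower of 8 for Fev precursors and serotonin, 1 and 3 of 14 for insulin and IGF signalling, 0 and 1 of 11 for immediate early genes, 0 and 1 of 6 for S phase, and 1 and 1 of 10 for cell cycle exit.

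Gut peptides went both ways. Gip, the incretin hormone of intestinal K cells, had 106.03 CPM in insulin-dominant cells against 7.74 CPM in the others (3.12), positive in 18 of 59 and 1 of 83 cells. Npy, neuropeptide Y, had 530 CPM in insulin-dominant cells and 0 counts in the others, at least 9360-fold higher, from 14 of 59 cells on 4 of the 6 plates. Both were therefore carried by a minority of the class. Gast had 31.8 CPM in insulin-dominant cells against 374 CPM in the others (-3.36). Cck had 36.9 CPM in insulin-dominant cells against 179 CPM in the others (-2.13), and Pyy had 3279 CPM in insulin-dominant cells against 10238 CPM in the others (-1.64). Cck and Pyy are hormones of intestinal endocrine cells, and Pyy is also made in the embryonic islet.

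Imprinted genes were split as well, with 3 of 19 measured genes at least 2-fold higher in insulin-dominant cells (Nnat, Cdkn1c and Dlk1) and 9 lower (median -0.74). For all genes these shares were 8.76% and 13.8%. Mest had 3.03 CPM in insulin-dominant cells against 131.3 CPM in the others (-4.09) and Peg3 had 360.4 CPM in insulin-dominant cells against 1176 CPM in the others (-1.69), both paternally expressed. Nnat, also paternally expressed, went the other way, so the list did not change as one unit. The noncoding RNA gene Meg3 was at like levels, with 1163 CPM in insulin-dominant cells and 1070 CPM in the others.

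Single-class comparisons share the 59 insulin-dominant cells, and each is given with its own background. Against glucagon cells 20.4% of 7953 genes were at least 2-fold higher and 20.3% lower, and only plate EA05 held 5 cells of both classes. Nnat led with 4677 CPM in insulin-dominant cells against 11.1 CPM in glucagon cells (8.18). Adra2a, the alpha-2A adrenergic receptor, had 222 CPM in insulin-dominant cells and 0 counts in glucagon cells, at least 795-fold higher, and Pdx1 had 138.1 CPM in insulin-dominant cells against 10.1 CPM in glucagon cells (3.24). The alpha factor gene Irx2 had 2.68 CPM in insulin-dominant cells against 255 CPM in glucagon cells (-5.08), and Pou3f4 had 0 counts in insulin-dominant cells against 155.3 CPM in glucagon cells, at least 1897-fold lower. Of the ER list 19 of 23 genes were higher and 0 lower (median 1.75), and of the alpha list 0 of 13 were higher and 9 lower.

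Against somatostatin cells 15.8% of 7956 genes were at least 2-fold higher and 19.1% lower. Iapp and Pdx1 were less than 2-fold higher in insulin-dominant cells (0.85 and 0.60, Pdx1 higher on 2 of 3 plates). Nkx6-1 and Hhex separated them, with Nkx6-1 at 98.6 CPM in insulin-dominant cells and 0.190 CPM in somatostatin cells (4.32) and Hhex at 4.01 CPM in insulin-dominant cells and 1869 CPM in somatostatin cells (-7.70). Sytl4 was again higher, with 521 CPM in insulin-dominant cells and 18.95 CPM in somatostatin cells (4.46), as was Maob with 528 CPM in insulin-dominant cells and 15.9 CPM in somatostatin cells (4.68). Cd24a, a surface glycoprotein gene, had 117.7 CPM in insulin-dominant cells against 3005 CPM in somatostatin cells (-4.62). Of the ER list 12 of 23 genes were higher and 0 lower.

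Against ghrelin cells 16.2% of 7928 genes were at least 2-fold higher and 19% lower. Only plates EA06 and EA07, both E17.5, held at least 5 cells of both classes. From E17.5 came 14 of the insulin-dominant and 18 of the ghrelin cells, and from E15.5 came 45 and 10. Stage and strain are thus mixed with hormone class in the ratios below. Slc30a8 had 364 CPM in insulin-dominant cells and 0 counts in ghrelin cells, at least 2235-fold higher, and Ppp1r1a had 665 CPM in insulin-dominant cells against 13.7 CPM in ghrelin cells (5.16). Cdkn1a had 11.8 CPM in insulin-dominant cells against 2250 CPM in ghrelin cells (-7.07). Neurog3 had 4.50 CPM in insulin-dominant cells against 647 CPM in ghrelin cells (-6.10), but with only plates EA01 to EA04 its log2 ratio was 0.78. Of the granule list 10 of 20 genes were higher and 1 lower, and of the ER list 12 of 23 were higher and 0 lower.

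A second hormone at or above 1000 CPM was found in 5 of 59 insulin-dominant cells (8.47%, interval 2.81 to 18.7%), which were Gcg in 1, Sst in 2 and Ppy in 2. Among the 83 other cells 20 had a second hormone (24.1%, 15.4 to 34.7%). The share was 38.9% in glucagon, 24% in somatostatin, 33.3% in pancreatic polypeptide and 10.7% in ghrelin cells. Free RNA and doublets can add hormone reads to a cell, and their part in these shares was not tested.

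Few insulin-dominant cells were cycling by their transcripts. Cycling genes were positive in 1 of 59 insulin-dominant cells (1.69%, 0.0429 to 9.09%), in 1 of the other 83 (1.20%) and in 47 of 66 cells of the duct plate (71.2%, 58.7 to 81.7%). With every cell thinned to 200000 counts, insulin-dominant cells had 1927, 3151 and 5097 genes detected (lowest, median, highest), and the others had 1713, 2450 and 4423. Unthinned medians were 3249 genes in insulin-dominant cells and 2604 in the others. Medians of the single classes after thinning were 3151 genes in insulin, 2801.5 in glucagon, 2426 in somatostatin, 2264.5 in pancreatic polypeptide and 2382.5 in ghrelin cells.

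Reads of the transgenes were counted beside the genes. On the E17.5 plates green fluorescent protein was at or above 20 CPM in 6 of 6 insulin-dominant and 22 of 22 other hormone cells of EA06, and in 8 of 8 and 17 of 17 of EA07. It was at or above 20 CPM in 0 hormone cells of the 4 E15.5 plates that held members. Cre, which reads out current Neurog3 promoter use, was positive in 0 of 6 insulin-dominant and 7 of 22 other hormone cells of EA06 and in 0 of 8 and 9 of 17 of EA07. Summed Cre was 0.572 CPM in insulin-dominant cells against 77.1 CPM in the others on EA06, and 0.741 CPM in insulin-dominant cells against 196 CPM in the others on EA07. Cre was thus low in insulin-dominant cells on both plates, as Neurog3 itself was.

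Within the 59 cells, secretory and ER genes were mostly higher where insulin was higher. Spearman's rho of each gene with the insulin level was computed over 59 cells with the 6 insulin and hormone genes taken out of the total, as a description, since cells share plates and depth. Of 3948 genes, 0.912% had a rho of 0.5 or more, 0.0507% had -0.5 or less, and 62.4% were above 0. The highest were Ppp1r1a (0.74), Nnat (0.73), Manf (0.72), Ssr2 (0.71), a subunit of the translocon-associated complex, and Iapp (0.70), named for their rank. Of 19 secretory genes 18 were above 0 and 8 at 0.5 or more (median 0.45), and of 22 ER genes 21 were above 0 and 7 at 0.5 or more (median 0.40). Within plate EA05 alone these medians were 0.30 and 0.39, and without EA05 they were 0.46 and 0.52.

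Genes of the class differed in this relation. Slc2a2 had a rho of 0.49, Maob of 0.44, Nkx6-1 of 0.40 and Sytl4 of 0.34. Pdx1 had a rho of -0.02 and Abcc8 of 0.039, with no clear order by insulin level. Isl1 was at -0.40 and the cytosolic chaperone gene Hsp90ab1 was the lowest at -0.58, with -0.55 within EA05 and -0.48 without it. Several values depended on the plates used. G6pc2 had 0.60 over all, 0.14 within EA05 and 0.86 without it. Within EA05 and without it, Sytl4 had -0.02 and 0.40, Abcc8 -0.34 and 0.30, and Iapp 0.38 and 0.83. Slc2a2 (0.47 and 0.52), Maob (0.55 and 0.51) and Nkx6-1 (0.43 and 0.39) changed less. The insulin level had a rho of -0.12 with the total count of the cell and 0.31 with the number of genes detected.

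**Figure D4:**
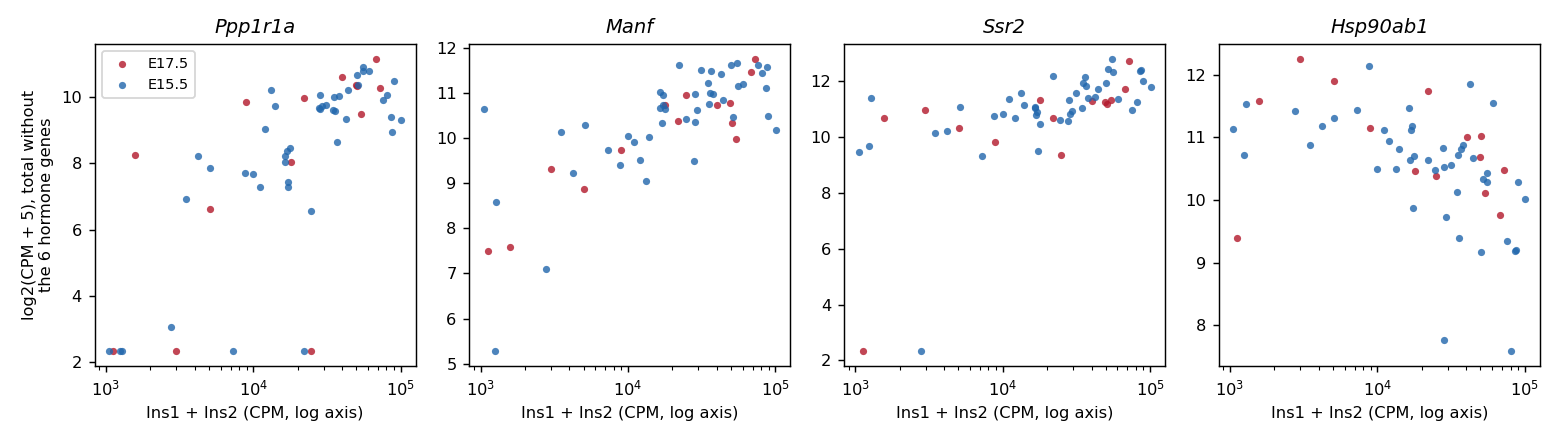
Level of Ppp1r1a, Manf, Ssr2 and Hsp90ab1 in each insulin-dominant cell, log2(CPM + 5) on a total without the 6 hormone genes, against its insulin level (CPM, log axis), E17.5 in red and E15.5 in blue. Ppp1r1a, Manf and Ssr2 are higher in cells with more insulin (rho 0.74, 0.72 and 0.71 over 59 cells), and Hsp90ab1 is lower (-0.58).

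Insulin-dominant cells of E17.5 and E15.5 were compared last, with 14 and 45 cells on 2 and 4 plates. They made up 14 of 53 hormone-dominated cells at E17.5 (26.4%, interval 15.3 to 40.3%) and 45 of 89 at E15.5 (50.6%, 39.8 to 61.3%), and since plates carry different codes at each stage, these shares cannot be told apart from the choice of cells. Of 7752 genes 21.4% were at least 2-fold higher at E17.5 and 16.5% lower. Genes whose plates did not overlap and that differed at least 2-fold made up 6.67% (higher) and 4.62% (lower). Without EA07 the count of genes at least 2-fold lower was 2683, against 1282 with it. Immediate early genes, transcribed first after many kinds of stimulus, stood out with 7 of 11 at least 2-fold higher and 0 lower (median 1.79), and for 6 of the 11 the E17.5 plates lay above every E15.5 plate, as they did for 8.64% of all genes. Fos, at chr12:85473890-85477273, had 1942 CPM on EA06 and 3343 CPM on EA07, against 923 on EA01, 250 on EA02, 221 on EA03 and 382 on EA05 (2.77). The lowest, median and highest cells had 165, 1826 and 8050 CPM at E17.5 and 0, 240 and 1814 CPM at E15.5.

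Of 20 measured granule genes 5 (25%) were at least 2-fold higher at E17.5 and 2 lower (median 0.40), a share close to the 21.4% of all genes that were higher, so the genes below are described one by one. Chga, which encodes the granule protein chromogranin A, had 738 CPM on EA06 and 4429 CPM on EA07, against 348 on EA01, 679 on EA02, 425 on EA03 and 490.1 on EA05 (2.70). The E17.5 plates lay above the E15.5 plates, though EA06 only just, and single cells had 10.4, 2394 and 8155 CPM at E17.5 against 1.36, 313 and 2109 CPM at E15.5. Slc30a8 had 713 and 651 CPM on the E17.5 plates against 134.9 to 494 CPM on the E15.5 plates (1.44), and Pcsk1n, an inhibitor of Pcsk1, had 390.1 and 501 CPM on the E17.5 plates against 43.2 to 112.6 CPM on the E15.5 plates (2.33). Ptprn, a granule membrane phosphatase-like protein, was lower, with 9.37 CPM at E17.5 and 96.03 CPM at E15.5 (-2.81).

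Several genes that mark the class differed less than 2-fold between the stages. Sytl4 had 520.5 CPM at E17.5 and 521 CPM at E15.5 (0.00), and Iapp had 17236 CPM at E17.5 and 15226 CPM at E15.5 (0.18). Nnat had 5946 CPM at E17.5 and 4185 CPM at E15.5 (0.51), and Nkx6-1 had a log2 ratio of -0.21. Pdx1 had 203 CPM at E17.5 and 112.97 CPM at E15.5 (0.82), with plates that overlapped. Of the 15 measured glucose-sensing genes 2 were at least 2-fold higher and 1 lower at E17.5. Of the 23 ER genes 5 were higher and 0 lower, where 21.4% of all genes were higher and 16.5% lower. Without EA05 the glucose-sensing counts were 6 higher and 3 lower, without EA06 they were 5 and 2, and without EA07 the ER count was 3. Mafa was low at both stages, with 1.07 CPM at E17.5 and 3.68 CPM at E15.5.

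Of 5 measured gut peptide genes 4 were at least 2-fold lower at E17.5 and 0 higher, where 16.5% of all genes were lower and 21.4% higher. Npy had 242 CPM at E17.5 and 641 CPM at E15.5 (-1.39), from 1 of 14 and 13 of 45 cells, and Gip had 53.9 CPM at E17.5 and 126.3 CPM at E15.5 (-1.16). Against the 27 cells of EA05 alone, the plate whose titles have the same form as those of the E17.5 plates, 23.6% of 7777 genes were higher and 18.8% lower. In that comparison Fos (2.89), Chga (2.68), Slc30a8 (1.54), Npy (-1.82) and Gip (-1.49) had the same sign, and 8 of 11 immediate early genes were higher and 0 lower. The largest single differences rested on few cells, such as Acss2 with 99.2 CPM at E17.5 and 1.14 CPM at E15.5, positive in 4 and 1 cells, while Med25, a Mediator subunit gene, had 177 CPM at E17.5 and 7.43 CPM at E15.5 (3.87) from 10 of 14 and 3 of 45 cells.

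**Figure D5:**
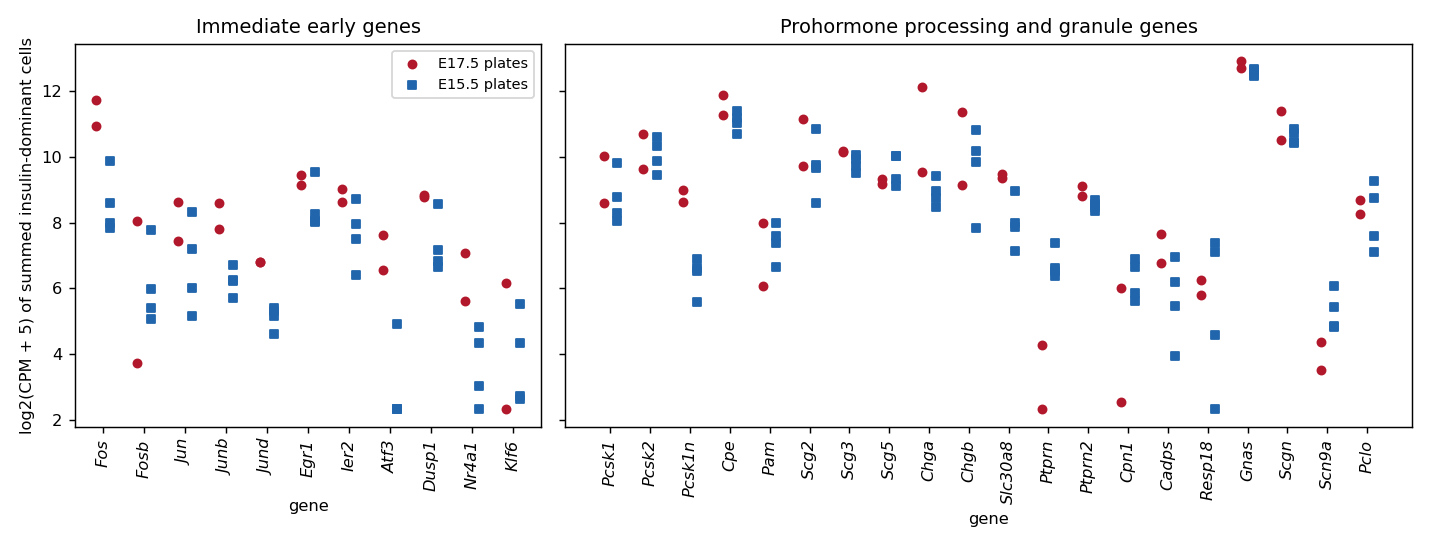
Summed level of insulin-dominant cells on each plate, log2(CPM + 5), for immediate early genes (left) and granule genes (right), E17.5 plates as red circles and E15.5 plates as blue squares. Fos, Junb, Jund, Atf3, Dusp1 and Nr4a1 have both E17.5 plates above all E15.5 plates, and so do Chga, Pcsk1n, Slc30a8, Scg3, Ptprn2 and Gnas among granule genes, while Ptprn and Scn9a have both below.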

How the data were processed

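Full-length libraries of 495 single cells on 7 plates were used as the gene counts deposited by the authors, 23002 features with whole-number counts that are not normalised. FastQC, STAR, HTSeq and the mm10 build are named per the submitters' processing notes, with versions and settings not given in the sources used here. Counts are of reads with no molecular identifiers, and strand is not marked, so overlapping genes share reads. No doublet caller was run.

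From the deposited counts, CPM was computed per cell on the full column sum, and counts were summed over the cells of a class for class levels. Log2 ratios are of summed CPM plus 5. A gene counted as measured from 20 CPM in either class, was called at 2-fold, and positive in a cell at 20 CPM. Named genes were the 12 highest and 12 lowest log2 ratios per comparison (8 for a single hormone class) among genes at 50 CPM or more in the higher class, at 10 CPM or more in at least 25% of its cells and with the same sign on every plate with 5 or more cells of both classes (for stages, with E17.5 and E15.5 plates not overlapping), the 4 list members furthest from 0, and a fixed set of islet genes; other list members and the highest rho were named after their values were seen. The members and the 27 gene lists were chosen with earlier results of these data known. Some list members are not reported here. Cells share animals and plates in ways the labels do not give, so no p-value was computed. Exact binomial intervals (95%) and the floor of 3 counts cover counting error only. Alternatives were the hormone threshold, pseudocount, gene filter, TMM and DESeq2 size factors, and leaving out plates. Python 3.11.15 with pandas 2.3.3, numpy 2.4.6 and scipy 1.17.1 and R 4.3.3 with edgeR 4.0.16 and DESeq2 1.42.0 (scaling only) were used, and the code was tested on simulated data.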

Additional observations from a re-analysis of the deposited data

Results flagged for a closer look

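On plates EA01, EA02 and EA03, the left-out rows D and H held 15 cells, and 10 of 15 cells were insulin-dominant by the same rule. Their insulin lay between 55239 and 219392 CPM (median 175255), above most of the 59 cells described. They also differed in other measures: green fluorescent protein was at or above 20 CPM in 13 of the 15 cells (86.7%, 59.5 to 98.3%), against 32 of 200 in other rows of these plates (16%), and Neurog3 was positive in 0 of 15, against 64% of the 200. In the 10 insulin cells, Iapp had 58636 CPM, G6pc2 3253 CPM and Chga 8867 CPM, while Nnat had 14.8 CPM. No label says what these wells hold.

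The difference of insulin-dominant from other-hormone cells in Dusp1, an immediate early gene, had opposite signs at the 2 stages. Its log2 ratio was 0.23 and 0.33 on the E17.5 plates and between -1.66 and -0.36 on the 4 E15.5 plates. Both E17.5 ratios were well below 2-fold. Many named genes were looked at, and Dusp1 was the 1 gene among them with such opposite signs. A single gene picked from many can show such signs by chance. Neither this nor the difference between stages was tested, so no stage effect is drawn from it.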

How the results depend on the processing

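No paired analysis was possible because the labels name no animal that cells of different classes share. Ratios within the 6 plates that hold both classes are given in the report for some genes only. For 194 gene results the alternatives gave 3826 values, of which 2843 stayed within the spread, 977 moved further and 6 reversed. Only genes at least 2-fold different in the main setting could count as reversed. Sign changes of smaller ratios lie among the other counts. Pax4 against other hormones was 1.32 with a threshold of 5000 CPM and 0.13 with plates EA01 to EA04 only, and against glucagon cells it was -0.79 with a threshold of 500 CPM. Against ghrelin cells Neurog3 (0.78) and Prom1 (0.60) reversed with EA01 to EA04 only, and Neurog3 between stages was -0.40 with a threshold of 500 CPM. The cause was not tested.

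Counts of genes at least 2-fold higher and lower were 689 and 1082 against other hormones, 358 and 504 with a pseudocount of 20, 1143 and 1836 with no gene filter, 1749 and 1795 with EA01 to EA04 only, and 711 to 956 and 1141 to 1356 with 1 plate left out. Against glucagon cells they were 1619 and 1611. The lower count was 1030 with a pseudocount of 20, the higher one 2757 with no filter and 2484 with EA01 to EA04, and with 1 plate left out they were 1660 to 2264 and 1611 to 1913. Against ghrelin cells they were 1281 and 1506, then 816 and 869 with a pseudocount of 20. The higher one was 2307 with no filter and 2758 with EA01 to EA04, and with 1 plate left out they were 1287 to 1722 and 1556 to 1861. Against somatostatin cells they were 1257 and 1520, then 778 and 899 with a pseudocount of 20. The higher one was 2238 with no filter and 2804 with EA01 to EA04, and with 1 plate left out they were 1294 to 1858 and 1555 to 1690. Between E17.5 and E15.5 they were 1657 and 1282, then 1055 and 731 with a pseudocount of 20. The lower one was 2273 with no filter, and with 1 plate left out they were 1680 to 2069 and 1271 to 2683. The stage comparison was not run on EA01 to EA04, which hold no E17.5 cells.

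With 1 plate left out 32 to 54 members remained (8.10 to 13.04%), and the median Ins1 share was 26.6 to 28.7%. The share of members at a level was 72.9% for Pdx1 and 77.97% for Nkx6-1, and 59.3% for each at 50 CPM. A second hormone was found in 32.2% at 100 CPM and in 0% at 5000 CPM. Genes with a rho of at least 0.5 numbered 36, against 58 in EA05 alone and 97 without it, and those at or below -0.5 numbered 2, against 26 in EA05, 5 without it and 4 without the 2 cells farthest from the median. These last settings, the EA02 cell and EA05 as the E15.5 group were chosen after seeing the data. The median of all genes against other hormones was -0.11 by CPM, 0.00450 with TMM and 0.0266 with DESeq2 size factors, so ratios under that shift give no direction. Scaling also changed the balance of genes 2-fold higher and lower, to 808 and 917 (TMM) and 839 and 884 (DESeq2) against other hormones, 1442 and 1269 (TMM) against ghrelin cells, 1388 and 1349 against somatostatin cells, 1721 and 1469 against glucagon cells and 1492 and 1427 between stages, so against ghrelin and somatostatin cells which direction had more genes depends on it. Summed classes hold few cells, and EA05 weighs most in them.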

Other observations

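Between stages, where 21.4% of all genes were at least 2-fold higher at E17.5 and 16.5% lower, 1 of 11 measured imprinted genes was higher and 2 were lower, shares that do not set the list apart. The lower ones were the noncoding RNA genes Meg3 (645 CPM at E17.5, 1363 CPM at E15.5, log2 ratio -1.07) and Rian (-2.10). Of 12 measured insulin and IGF signalling genes 5 were higher and 3 lower. After thinning, insulin-dominant cells had a median of 3844.5 genes at E17.5 and 3092 at E15.5, and Rn45s took 9.02% of counts at E17.5 and 12.5% at E15.5. The part of these depth measures in the differences between stages was not tested.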
